A study of Mus musculus with 3 samples.

Results

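The transcription factors and cell cycle proteins that direct the making of multiciliated cells were examined in cultured neural precursors of the mouse. The 10 regulators were Gmnc, Mcidas, Ccno, Trp73, Myb, Foxj1, Rfx1, Rfx2, Rfx3 and Rfx4, taken by symbol from the 22180 genes that had a probe set carrying 1 gene symbol. All 10 were measured, with 11 probe sets in all. Myb had a pair of them, of which the one with the higher mean was used, and the other 9 regulators had 1 each.

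The series holds 3 expression arrays of 1 group, hybridised with biotin-labelled total RNA. The cells were wild-type (WT) precursors of CD1 mice aged postnatal day 8 (P8; the protocol allows day 7 or 8), taken from the V-SVZ, the germinal zone beside the lateral ventricles. They were grown as neurospheres, free-floating clusters of precursors and their progeny, for 7 days in 10 ng/ml FGF and 20 ng/ml EGF. Pups were cultured apart per the protocol, but the labels do not tie arrays to pups. What varies between arrays may therefore be technical, and the p-values have no other source of variation. For the test against the reference level that variation was pooled over genes, as described below.

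Multiciliated cells carry many motile cilia on their surface, and in the brain they are the ependymal cells that line the ventricles and the epithelium of the choroid plexus. Ependymal cells of the lateral ventricle derive from radial glia and become multiciliated as they mature. In the known cascade the geminin relatives Gmnc and Mcidas act first, with E2f4, E2f5 and Tfdp1 as partners. They switch on Ccno, Myb, Trp73 and Foxj1, centrioles are multiplied on structures called deuterosomes, and Foxj1 and the Rfx factors drive the genes of the motile axoneme. Rfx factors also drive genes of the single primary cilium that most cell types have, and Rfx4 is a factor of the developing brain.

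The values are log2 signals made by RMA. As the series has no comparison group, a gene's signal was judged by how far it exceeded that of genes of the nose. The reference level, taken on each array as the 95th percentile over 1400 olfactory and vomeronasal receptor probe sets, came to 5.63, 5.53 and 5.71 on arrays 1, 2 and 3. The margin of a gene is its log2 signal minus that level. A gene was called above the level at an adjusted p under 0.05 in limma's one-sided moderated test (Benjamini-Hochberg over all 22180 genes). In that test genes of like signal shared 1 spread, so a p-value does not use the gene's own spread between arrays. A gene with equal values on all arrays adds to the shared spread only that of the reference level (SD 0.091). Probes differ in how strongly they bind, so a higher signal or margin of one gene than another does not show more transcript. In RNA from whole cultures, fewer cells with a transcript and less transcript per cell cannot be told apart.

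Markers of the precursor identity that the labels give were above the reference level, as were 59.1% of all genes tested. Which cells of the cultures gave these signals was not tested. Each of the 8 markers of neural stem cells and radial glia exceeded the reference level, including Sox2 (11.39 ± 0.073, SD, n = 3), Nes (8.50 ± 0.035), Vim (13.49 on each array), Fabp7 (13.73 on each array), Slc1a3 (12.60 ± 0.025) and Pax6 (9.30 ± 0.045). All 4 measured proliferation markers were above as well, with Mki67 at 10.29 on each array, Top2a at 9.52, Cdk1 at 10.13 and Mcm2 at 8.73.

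The regulators fell on both sides of the reference level. Foxj1, Myb and the 4 Rfx genes, 6 of the 10, were above the reference level, while Gmnc, Mcidas, Ccno and Trp73 were not. Over all genes tested 59.1% were above, so 6 of 10 is near the background share and the number called says nothing particular about these regulators. Their median margin was 1.41, beside 0.76 over all genes tested. The 4 not called were the 3 with roles at the head of the cascade or in centriole multiplication and the p53 relative Trp73.

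Regulation of these genes by each other was not measured, and only their promoters were searched for motifs. RefSeq promoter windows (GRCm38.p6, 250 bases before to 50 after each start) were held for 9 of the 10 regulators, 12 windows in all. Foxj1 had none, and sites outside the windows were not searched. The windows of Mcidas and Ccno are shown as neighbours in 1 locus that were both not above the reference level, and those of Rfx2 and Rfx3 as regulators that were above it. Capitals mark each match to the RFX core motif GTTNCC on either strand, where the reverse reads GGNAAC.

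Mcidas (chr13:112993618-112993917, + strand): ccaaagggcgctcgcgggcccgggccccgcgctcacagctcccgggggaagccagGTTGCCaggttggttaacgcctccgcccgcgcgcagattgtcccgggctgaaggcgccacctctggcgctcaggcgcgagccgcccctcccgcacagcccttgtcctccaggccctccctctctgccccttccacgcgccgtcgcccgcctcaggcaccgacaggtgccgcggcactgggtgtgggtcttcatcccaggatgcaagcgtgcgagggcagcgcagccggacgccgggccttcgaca
Ccno (chr13:112987552-112987851, + strand): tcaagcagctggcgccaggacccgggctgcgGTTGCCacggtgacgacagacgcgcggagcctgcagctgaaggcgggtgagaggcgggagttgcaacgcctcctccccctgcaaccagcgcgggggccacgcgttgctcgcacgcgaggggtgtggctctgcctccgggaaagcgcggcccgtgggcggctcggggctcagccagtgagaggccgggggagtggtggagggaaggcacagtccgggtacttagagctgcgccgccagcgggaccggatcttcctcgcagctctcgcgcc
Rfx2 (chr17:56830959-56831258, - strand): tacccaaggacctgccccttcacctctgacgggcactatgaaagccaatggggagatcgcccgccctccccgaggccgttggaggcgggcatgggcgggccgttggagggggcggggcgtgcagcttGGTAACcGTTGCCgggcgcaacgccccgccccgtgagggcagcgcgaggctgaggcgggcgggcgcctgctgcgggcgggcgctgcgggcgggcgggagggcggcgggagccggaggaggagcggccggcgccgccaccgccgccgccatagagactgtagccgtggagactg
Rfx3 (chr19:28011117-28011416, - strand): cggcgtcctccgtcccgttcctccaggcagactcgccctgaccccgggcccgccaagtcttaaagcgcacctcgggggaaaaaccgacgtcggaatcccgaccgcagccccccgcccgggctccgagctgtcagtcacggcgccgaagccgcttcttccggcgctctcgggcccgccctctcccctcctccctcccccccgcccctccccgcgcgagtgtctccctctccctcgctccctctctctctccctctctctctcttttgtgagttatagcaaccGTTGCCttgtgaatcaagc

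The core motif stood in windows of both kinds of regulator. It was present in 8 of the 12 windows, 1 window each for Mcidas, Gmnc, Ccno, Trp73, Rfx1, Rfx2, Rfx3 and Rfx4, beside 45.3% of the 32851 windows of all genes. The X-box, the RFX site of ciliary genes, varies in its letters. It was searched only in a strict form, GTTNCC followed by GGNAAC after 0 to 3 bases. In the Rfx2 window GGTAAC and GTTGCC stand 1 base apart, but in the reverse of that order. No regulator's window held the strict form (0.804% of all windows), and looser forms were not searched. The Ccno window holds GTTGCCacGGTGAC, which misses the strict form by 1 letter. The forkhead motif GTAAACA was found in the Myb window alone among the 12 (3.65% of all windows), and the E2F letters TTTNGCGC in none (1.38%). These letters are 1 strict form of the E2F site, and TTTGGCGG in the Myb window misses it by 1 letter. The MYB motif TAACNG was in windows of Gmnc, Rfx2 and Rfx4 (23.3% of all windows). Motifs were searched on both strands and a match is a run of letters, not a measured binding site. In the Rfx2 window the MYB match shares bases with both RFX core motifs, and no other matches to these motifs overlapped in the 12 windows.

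The earliest regulators lay close to the reference level, in the upper tail of the receptors. Gmnc, the coiled-coil protein at the head of the cascade, had log2 signals of 5.29, 5.29 and 5.34 on arrays 1, 2 and 3. It lay under the reference level on each array, with a margin of -0.32 ± 0.064 (SD, n = 3). Of the 1400 receptor probe sets 124 had a higher mean signal than Gmnc.

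Mcidas, which encodes multicilin and binds E2f4 or E2f5, had 5.68, 5.51 and 5.84. Arrays 1 and 3 were above their reference levels and array 2 was below its own, so the regulator straddled the level. Its margin was 0.05 ± 0.073 (limma adjusted p = 0.431), and 63 receptor probe sets had a higher mean. Mcidas was highest on array 3 and lowest on array 2, and the reference level itself had the same order. The SD of its signal was 0.16 and that of its margin 0.073.

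Ccno, an atypical cyclin needed for the multiplication of centrioles, had 5.04, 5.37 and 5.37. Array 1 was the low one and all 3 lay under the reference level, with a margin of -0.36 ± 0.22. Ccno and Mcidas are neighbours, with starts 6066 bases apart on the same strand of chromosome 13 in GRCm38.p6, and neither was called. Trp73, the p53 relative whose long form acts in multiciliated cells, had 5.54, 5.54 and 5.55, a spread of 0.01. It was above the level on array 2 alone, where the level was lowest, and its margin was -0.08 ± 0.083.

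Foxj1 and Myb had higher signals than nearly every receptor. Foxj1, the forkhead factor of motile cilia, had 7.85, 7.89 and 7.85 and stood above the reference level on each array by 2.24 ± 0.11. Only 1 of the 1400 receptor probe sets had a higher mean. The 3 arrays differed by 0.04, which is small beside the margin.

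Myb, a transcription factor that acts early in multiciliated cells and also in dividing progenitors of blood, had 6.67, 6.83 and 6.67 on its higher probe set. That set was above the level on each array by 1.09 ± 0.18, and 6 receptor probe sets had a higher mean. The other Myb probe set read 5.80 on all arrays, a margin of 0.17 ± 0.091 that kept the call when the lower set was used. The pair thus differed by more than the spread between arrays in how far above the level Myb lay. Which transcripts each set covers was not examined here.

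The Rfx genes encode winged-helix proteins that bind the X-box. Rfx1, the broadly expressed member, had 7.83 on each array and Rfx2, which is prominent in multiciliated and germ cells, had 7.35 on each. Their margins were 2.20 ± 0.091 and 1.73 ± 0.091. Since the deposited values were equal on the arrays, these SDs come from the reference level alone. Rfx3, a factor of ependymal and nodal cilia, had 9.55, 9.55 and 9.53 with a margin of 3.92 ± 0.10. Rfx4 had 9.86, 9.86 and 9.85 with a margin of 4.23 ± 0.099. Each of the 4 Rfx genes was above the level on every array, and their arrays agreed within 0.03 of each other.

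**Figure D1:**
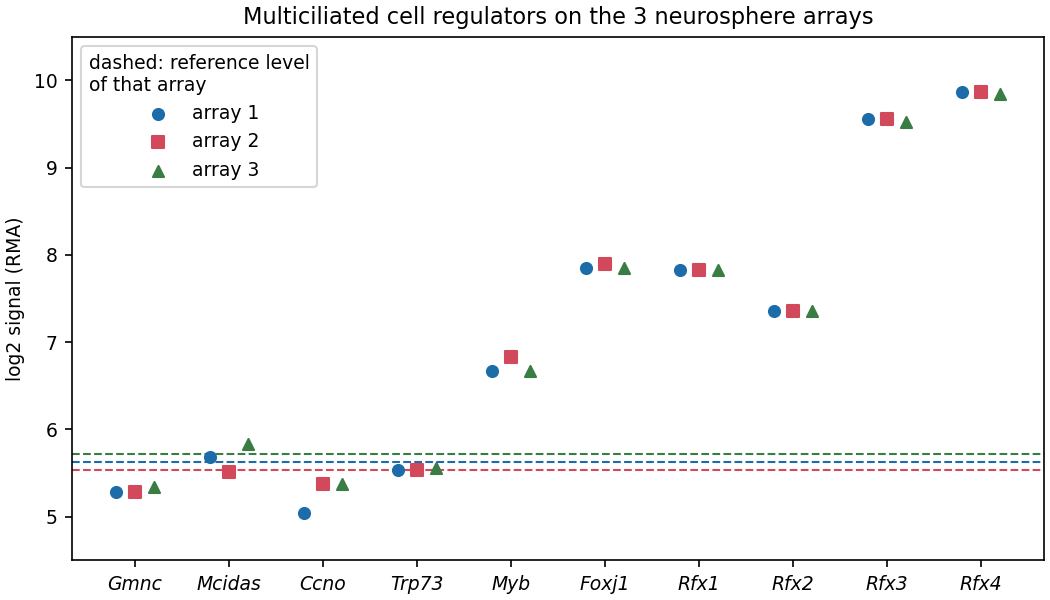
Log2 RMA signal of the 10 regulators (x axis) on each of the 3 arrays (points); dashed lines are the reference levels of the arrays, 5.63, 5.53 and 5.71. Gmnc and Ccno sit under the lines, Mcidas and Trp73 lie on both sides of their arrays' lines, and Foxj1, Myb and the Rfx genes sit above all 3.

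The distance from the reference level can be read against the receptors as a whole. For Gmnc, Ccno and Trp73 the share of receptor probe sets with a lower mean was 91.1%, 90.2% and 94%, and for Mcidas it was 95.5%. For Myb it was 99.6% and for Rfx2 99.9%. The array signals of the 4 regulators not called therefore lie in the upper tail of the receptors, and no call does not show that these transcripts were absent.

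**Figure D2:**
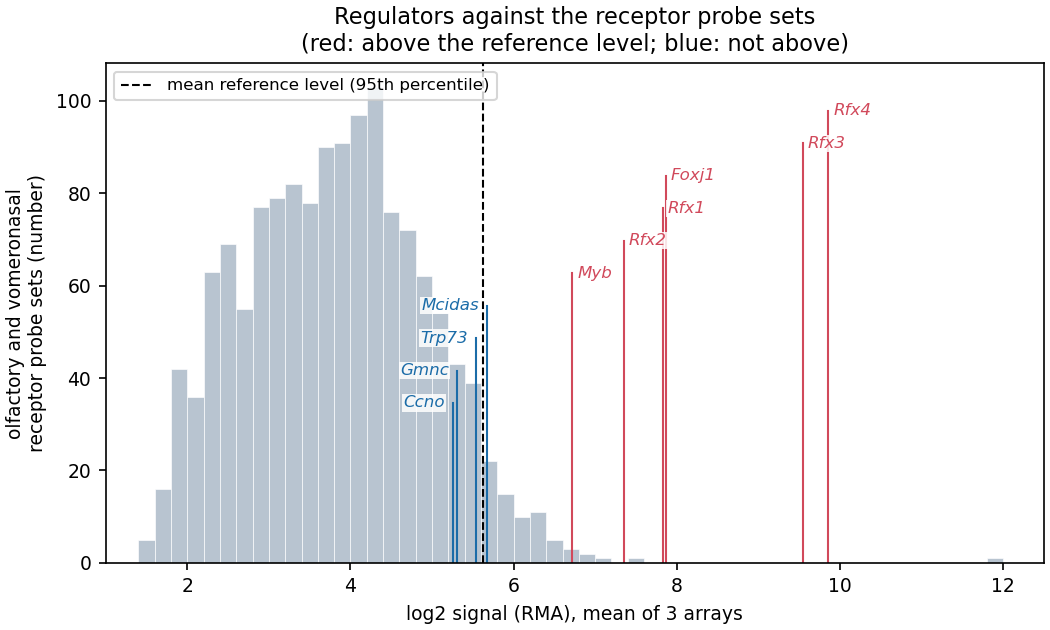
Histogram of the mean log2 signal of 1400 receptor probe sets (y axis, number per bin) with the mean of each regulator as a vertical line whose height has no meaning. The blue lines of Ccno, Gmnc, Trp73 and Mcidas fall in the upper tail of the receptors, and the red lines from Myb to Rfx4 fall beyond nearly all of them.

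The calls of 3 regulators turned on the reference level. With the 90th percentile of the receptors, where 66.7% of all genes were above, 8 regulators were called, Mcidas (margin 0.41, limma adjusted p = 3.99e-09) and Trp73 (margin 0.27, limma adjusted p = 5.48e-05) being added. With the 99th percentile, where 44.9% of all genes were above, 5 were called and Myb was not (margin 0.32, limma adjusted p = 0.15). Myb was also not called against a second set of reference genes (142 probe sets of bitter taste receptors, defensins and keratin-associated proteins) (margin 0.28, limma adjusted p = 0.292). Against that set 43.5% of all genes were above. Foxj1 and the 4 Rfx genes were called under each of these levels, and Gmnc and Ccno under none of them.

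**Figure D3:**
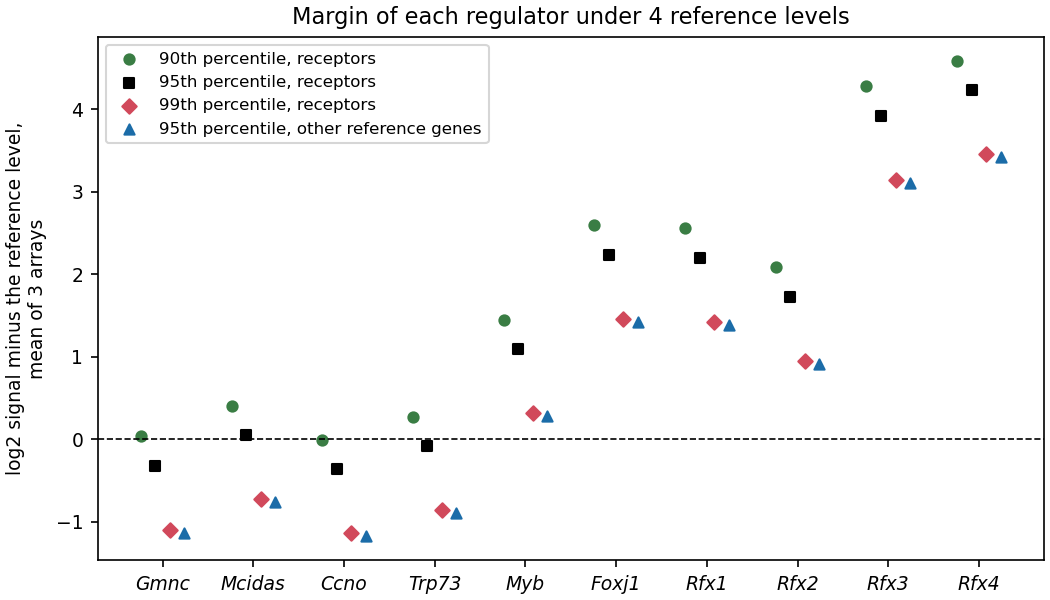
Mean margin of each regulator (log2 signal minus the reference level, y axis) under 4 reference levels. Foxj1 and the Rfx genes stay above 0 under all 4, while Gmnc, Mcidas and Trp73 change sign and Myb approaches 0.

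The list of partners and inhibitor of the geminin-type regulators came next. All 6 genes of that list were above the reference level, beside 59.1% of all genes tested. E2f4 (8.81 ± 0.097) and E2f5 (11.21 ± 0.0032), the E2F factors that Gmnc and Mcidas bind, and their dimer partners Tfdp1 (10.47 on each array) and Tfdp2 (8.77 ± 0.079) were among them. These factors also act in the cell cycle of any dividing cell. Cdt1, a replication licensing factor, had 7.22 on each array. Gmnn, which encodes geminin, the inhibitor of Cdt1 and binding partner of Mcidas, had 5.86 on each array, a margin of 0.24 ± 0.091 (limma adjusted p = 0.00189). Without array 1, and against the 99th percentile or the other reference genes, Gmnn was not called and 5 of 6 were above. Of all genes 56.4%, 44.9% and 43.5% were above in those settings.

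Of 11 measured relatives of the regulators 8 were above the level (72.7%, beside 59.1% over all genes), with a median margin of 2.29 beside 0.76. In the RFX family these were Rfx5 (8.46 ± 0.18) and Rfx7 (10.15 ± 0.0045), together with Rfxank (10.02) and Rfxap (7.59), which join Rfx5 in the complex at MHC class II genes. Rfx6, an endocrine factor of the pancreas, had 4.77 on each array and Rfx8 4.80, both not above. The forkhead relatives Foxj2 (9.52 ± 0.025) and Foxj3 (7.92 ± 0.0037) were above. So were the Myb relatives Mybl1 (10.39 ± 0.026), known for male meiosis, and Mybl2 (7.26 ± 0.088), a cell cycle factor whose call was lost with the lower of its probe sets. Trp63, the epidermal p53 relative, read 5.38 on each array and was not above. Trp53 was not analysed here.

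Deuterosome genes were not called, and genes that duplicate centrioles in every cycling cell were. Of 3 deuterosome genes 0 were above the level in limma's test, beside 59.1% of all genes tested. The count was also 0 at an unadjusted p under 0.05. Deup1, the core deuterosome protein, had 5.38, 5.30 and 5.38, under the level on each array. Cdc20b, the neighbour of Mcidas, had 4.97, 4.97 and 5.30. Ccdc78 had 5.94, 5.23 and 5.94, above the level on arrays 1 and 3 and below it on array 2 (limma adjusted p = 0.258). Without array 2 it was called, so 1 of 3 was then above, as it was with the 90th percentile. Of all genes 58.4% and 66.7% were above in those settings.

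All 10 centriole duplication genes were above the reference level, beside 59.1% of all genes tested. Their median margin was 2.15 beside 0.76 over all genes tested. They included the kinase gene Plk4 (7.83 ± 0.031), which starts duplication, and the cartwheel and assembly genes Sass6 (8.44 ± 0.038), Stil (7.71 ± 0.077) and Cenpj (6.86 ± 0.054). Cep63 (7.13 ± 0.21) was above too. Cep152 (6.16 on each array), a partner of Deup1 and of Cep63, had a margin of 0.54 and was not called against the 99th percentile. With the other reference genes neither Cep152 nor Cenpj was called, which left 8 of 10, beside 43.5% of all genes.

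Genes of the motile axoneme, which Foxj1 and Rfx factors drive, lay on both sides of the level, with margins from -1.13 to 2.59. Of 27 measured 15 were above (55.6%), a share near the 59.1% over all genes, with a median margin of 0.21. The heavy chain gene Dnah9 (6.20), the intermediate chain genes Dnai1 (6.80) and Dnai2 (6.24), both listed on the array under older symbols, Dnali1 (6.58), the assembly factor gene Dnaaf1 (5.84) and Ccdc40 (6.16) were above, each with 1 value on all arrays. Dnaaf1 was not called without array 1. Dnah5, Dnah11, Dnah6 and Dnah2, further heavy chain genes, had 5.56, 5.44, 5.11 and 5.26 and were not above, nor were the radial spoke gene Rsph1 (5.66) and Hydin (5.40). With the 99th percentile as the reference, or with the other reference genes, 1 of 27 was above, beside 44.9% and 43.5% of all genes. That gene, named after its values were seen, was the radial spoke head gene Rsph9, at 8.22 on each array.

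Genes of intraflagellar transport and the primary cilium were all above. These were 14 of 14 measured, beside 59.1% of all genes tested, with a median margin of 2.63 and a lowest margin of 2.02. All 14 stayed above with the 99th percentile and with the other reference genes, beside 44.9% and 43.5% of all genes. Ift88 (7.69 ± 0.053), Ift172 (7.65 ± 0.073), Ift80 (7.88 ± 0.038), Ift122 (8.29 ± 0.19), Ift140 (8.02 ± 0.021) and Ift20 (11.70 ± 0.034) belong to the particles that carry cargo along the cilium. No test compared this list with the axoneme list.

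**Figure D4:**
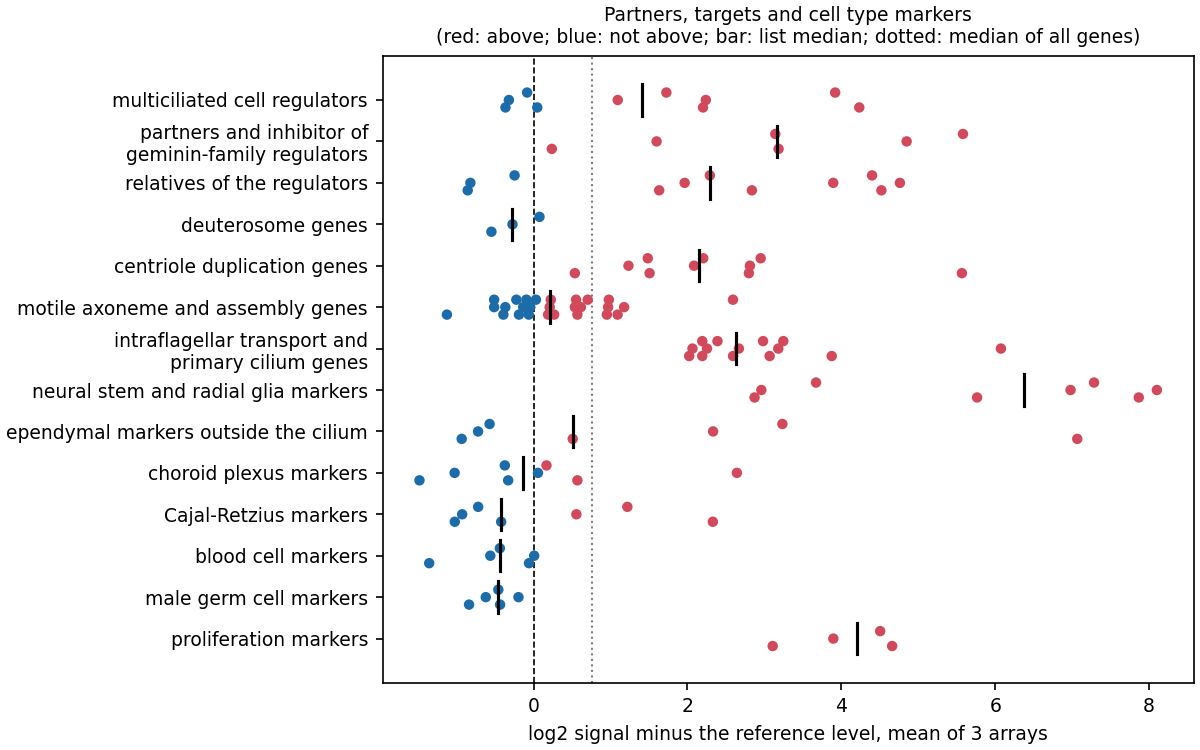
Mean margin over the reference level (x axis, log2) of every measured gene of each list (rows), red where limma called it above and blue where not; black bars are list medians and the dotted line is the median of all genes, 0.76. The axoneme genes run from -1.13 to 2.59 and the primary cilium genes begin at 2.02.

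Markers of the cell types in which these regulators are known were measured in the same way. Of 7 measured ependymal markers outside the axoneme list 4 were above (57.1%, beside 59.1% over all genes): S100b (7.96 ± 0.040), Cd24a (12.69 ± 0.042), Meig1 (8.86 ± 0.026) and Tm4sf1 (6.13 ± 0.16). Tmem212 (5.05 ± 0.099), Enkur (4.69 ± 0.067) and Mia (4.90) were not. Tm4sf1 was not called against the 99th percentile or the other reference genes. S100b and Cd24a are also made by glia and neuroblasts. Of 8 choroid plexus markers 3 were above (37.5%), Otx2 (8.27), Ttr (6.20) and Sostdc1 (5.79 ± 0.097), and Folr1 (5.25 ± 0.43), Clic6 (4.14 ± 0.32), Kl (4.60 ± 0.33), Aqp1 (5.68 ± 0.020) and Slc4a5 (5.30) were not. Against the 99th percentile or the other reference genes Otx2 alone was called, and Sostdc1 also lost its call without array 1 and without array 3. Their medians were margins of 0.51 and -0.14. The part of ependymal or choroid plexus cells in the Foxj1 signal was not tested.

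Cajal-Retzius neurons are a brain site of Trp73, and 3 of 7 of their markers were above (42.9%, beside 59.1% over all genes), Reln (6.84), Ebf3 (6.18 ± 0.040) and Ndnf (7.96 ± 0.15). Calb2 (5.20), Lhx1 (4.91), Lhx5 (4.70) and Nhlh2 (4.60) were not. Ebf3 was not called against the 99th percentile, and with the other reference genes Ndnf alone was. Blood cells are a site of Myb, and of 5 measured blood cell markers 0 were above in limma's test and 0 at an unadjusted p under 0.05. Ptprc, the pan-leukocyte marker, had 4.27 ± 0.090, Cd3e 5.06 ± 0.22, Cd79a 5.19, Spi1 5.57 ± 0.055 and Klf1 5.63 ± 0.031. Of 5 measured male germ cell markers, a site of Rfx2, 0 were above by either count, Ddx4 having 5.19 ± 0.11, Prm1 5.43 ± 0.24, Tnp1 5.17, Acrv1 4.79 ± 0.048 and Dazl 5.005 ± 0.10.

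The spread between arrays differed from regulator to regulator. The widest ranges over the 3 arrays were those of Ccno (0.34) and Mcidas (0.33), followed by Myb (0.16). Those of Ccno and Mcidas were wider than those of 88.9% and 88.3% of all genes, which include 8729 without any range. The median range was 0.105 for receptor genes and 0.033 for all other genes. The ranges of Gmnc (0.06), Foxj1 (0.04), Rfx3 (0.03), Rfx4 (0.02) and Trp73 (0.01) were narrower, and Rfx1 and Rfx2 had none. limma's variance test called 0 of 22180 genes (0%), and 0 at an unadjusted p under 0.05. That test is void here, because 8729 genes had 1 value on all 3 arrays and its prior variance fell to nearly 0. Over the 13451 genes whose values were not all equal it called 0, with 132 at an unadjusted p under 0.05 and none of them a regulator. Genes with equal values on 2 arrays stayed in that set, since 16646 genes had equal values on 2 or 3 arrays. This form of the test therefore does not show whether the regulators differed between arrays.

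Equal values were common between probe sets as well as between arrays. On array 1 50.7% of the 41345 probe sets shared their exact value with another, on array 2 43.2% and on array 3 45.1%. Among the regulators, Rfx2 and the lower Myb probe set shared their values with others on each array, 38 probe sets having that Myb value on array 1. On array 3 112 probe sets had the value of Gmnc. Ccno, Trp73, Rfx1, Rfx4 and the higher Myb probe set shared theirs on some arrays. Among the list genes, Dnah9 and Ttr had the same value on each array, as did Ccdc40 and Cep152. Foxj1, Mcidas and Rfx3 had values of their own on each array. Equal values make an SD smaller than the true spread, and the sources used here do not name the step that made them.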

How the data were processed

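Total RNA of neurospheres was hybridised to 3 mouse gene arrays. The authors deposited log2 signals of 41345 probe sets, and the submitters' processing notes name RMA as the method; no source used here gives its version or options. Of these, 23521 carried 1 gene symbol in the array's annotation, 1814 several and 16010 none. For a gene with several probe sets the highest mean was used. Each array's reference level was subtracted, and limma 3.58.1 in R 4.3.3 tested the margin (intercept model, eBayes with an intensity trend). Its prior degrees of freedom were infinite, so genes of like signal shared 1 spread, and margins from 0.15 upward passed. Most p-values of genes far above the level are not printed. The steps were tested on simulated data.

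The regulators and gene lists were chosen with earlier results of these data known. The text gives all 10 regulators, every gene of the partner, relative and deuterosome lists, and up to 6 genes above and 6 not above of the others, in written order; genes named otherwise are marked. List genes were matched by symbol, 2 by gene ID, and lists were counted without a set test. Promoter and miRNA sequences came from RefSeq (GRCm38.p6). Alternatives changed the reference level, the probe set, the scaling, the variance model and the arrays used. Figures were drawn with matplotlib 3.10.9. For arrays, their number limits the precision.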

Additional observations from a re-analysis of the deposited data

How the results depend on the processing

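No paired analysis was possible because the series has 1 group. The number of regulators above the reference level stayed between 5 and 8 over the alternatives, and was 6 without each array in turn. Against the 90th percentile the margin of Gmnc turned to 0.038 (limma adjusted p = 0.423) and that of Trp73 to 0.27. The margin of Mcidas turned to -0.73 with the 99th percentile and to -0.76 with the other reference genes. Counts that moved by over 1.5 times with the 90th percentile were those of deuterosome genes (1 of 3), blood cell markers (2 of 5) and male germ cell markers (1 of 5). At that percentile 66.7% of all genes were above. With the 99th percentile 1 of 27 motile axoneme genes and 1 of 8 choroid plexus markers were above, beside 44.9% of all genes. The other reference genes gave 1 and 1 for those lists and 1 of 7 Cajal-Retzius markers, beside 43.5% of all genes. Leaving out each array in turn gave 0 to 1 deuterosome genes. A margin of at least 0.5, chosen after seeing the data, left 6 regulators and 11 axoneme genes above, beside 53.3% of all genes. Centring the arrays on their medians changed no margin by construction. Of 195 counts of regulators and list genes under the alternatives, 186 stayed within 1.5 times the main count and 9 did not. Some of the 195 could not move, such as those after centring, so the 186 is no measure of stability. The variance test was void in its planned settings, and equal values remained in the unplanned one, so it shows nothing about stability.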

Other observations

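The microRNAs of the miR-449 and miR-34 families act in multiciliated cells, and their probe sets were looked at after the regulators' values were seen. Mir449a and Mir449c lie inside Cdc20b, beside Mcidas and Ccno. The mature RNAs below share the seed GGCAGUG, bases 2 to 8, in capitals.

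miR-449a-5p: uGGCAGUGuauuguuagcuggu
miR-449c-5p: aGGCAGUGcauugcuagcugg
miR-34a-5p: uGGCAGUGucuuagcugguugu
miR-34b-5p: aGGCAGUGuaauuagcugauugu

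Hairpin probe sets measure the precursor region and not the mature RNA. Mir449b read 12.04, 11.73 and 12.17 on arrays 1, 2 and 3, a margin of 6.35 ± 0.14. Its neighbours in the same host did not share that signal. Mir449a had 5.84, 5.84 and 6.18 (margin 0.33 ± 0.13, limma adjusted p = 2.04e-05), Mir449c 3.81 on each array and the host Cdc20b 4.97, 4.97 and 5.30. Mir34a (5.03 on each array), Mir34b (5.53, 5.25 and 5.53) and Mir34c (2.60 on each array) were not above the reference level. Of all microRNA genes 28.2% were above it. What the Mir449b probe set binds was not tested.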
